A study of Homo sapiens with 2 samples.

Results

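The cells described here are the 10% of each library that held the most RNA of 5 stress genes, namely HSPA1A, HSPA1B, DNAJB1, FOS and JUN. For every cell the UMIs (unique molecular identifiers, 1 per captured RNA molecule) of these genes were added, and expressed relative to all UMIs of the cell as CPM, that is per 1e6 UMIs. The highest cells were then taken as members in each library, in equal numbers and 370 of 3700 cells in all, and each set was compared with the other cells of its own library. Since the members were selected on these 5 genes, the genes are given only as a description and are left out of all other results.

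LNCaP_FGC is a human prostate carcinoma line that responds to androgen, and LNCaP_C4-2B is a strain of LNCaP that grows without androgen (castration-resistant). Both lines were kept in RPMI1640 with 10% FBS and 1% Pen/Strep, received no treatment, were detached with trypsin and were profiled with 10x Genomics 3′ chemistry, 1 library per line. The libraries carry different batch labels, so the line and the batch cannot be told apart. There is no replicate of either library and cells do not stand in for it, so values are given without p-values. Intervals are 95% intervals for counting error, and they do not cover the spread between cells or cultures.

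The heat shock genes of the rule encode chaperones, proteins that keep other proteins folded. HSPA1A and HSPA1B are near-identical copies of the inducible HSP70, and DNAJB1 is an HSP40 partner that hands substrates to HSP70. They are switched on by the factor HSF1, which binds heat shock elements in their promoters. FOS and JUN are immediate early genes, transcribed within minutes of a growth or stress signal without new protein synthesis, and their products pair to form the AP-1 transcription factor. Both groups are known in cultured epithelial cells as quick, short-lived responses.

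The scores formed a continuous slope and not a separate population of cells. In LNCaP_FGC the score of the members ran from 294.2 to 864 CPM with a median of 352, against a median of 115 CPM in the other cells. In LNCaP_C4-2B it ran from 185.9 to 1819 CPM with a median of 233, against 58.0 CPM. The last cell inside the LNCaP_FGC set had 294.2 CPM and the first cell outside it had 293 CPM, and in LNCaP_C4-2B these cells had 185.9 and 185.1 CPM. These values rest on few molecules. A member held a median of 6 UMIs of the 5 genes in LNCaP_FGC (3 to 15) and of 4 in LNCaP_C4-2B (2 to 18), the other cells held a median of 2 and 1, and 221 and 545 cells held none.

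**Figure D1:**
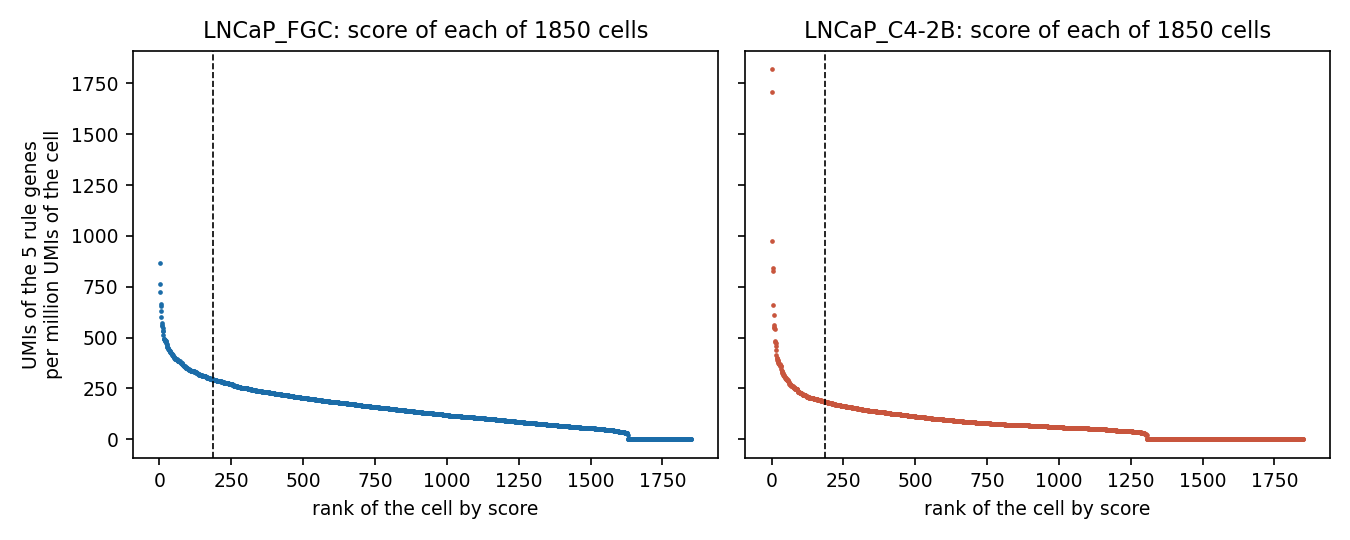
Score of each of the 1850 cells of each library (vertical axis, UMIs of the 5 genes as CPM of the cell) against its rank (horizontal axis). The dashed line has the members on its left. The slope passes the line without a step, at 294.2 CPM in LNCaP_FGC and 186 CPM in LNCaP_C4-2B, and the 2 highest LNCaP_C4-2B cells stand at 1819 and 1709 CPM.

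The label of heat shock and early-response-high cells was met only in part. HSPA1A had 0 UMIs in the members of both libraries and 3 and 1 UMIs in the other cells, so it added nothing to the score. Reads of HSPA1A and HSPA1B can come from either copy, and the values printed for HSPA1B are therefore uncertain as to the copy. FOS was close to absent in LNCaP_FGC, with 8 UMIs in 6 members and 17 UMIs in the other cells. In LNCaP_C4-2B it had 61 UMIs in 23 members and 41 UMIs in the other cells, and 15 of the 61 lay in 1 cell. Most UMIs of the score thus came from HSPA1B, DNAJB1 and JUN, but not in every member. In LNCaP_FGC 66 members held no FOS or JUN UMI and 3 held no heat shock UMI, and in LNCaP_C4-2B these were 39 and 39. HSPA1B was seen in 86.5% of LNCaP_FGC members and in 43.2% of LNCaP_C4-2B members.

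HSPA1B stood at 134 CPM in the LNCaP_FGC members and 45.0 CPM in the other cells, and at 41.4 and 12.7 CPM in LNCaP_C4-2B. DNAJB1 stood at 141 and 52.8 CPM in LNCaP_FGC and at 84.3 and 27.6 CPM in LNCaP_C4-2B. JUN stood at 97.9 and 27.9 CPM in LNCaP_FGC and at 135 and 22.1 CPM in LNCaP_C4-2B. The leading gene therefore differed by line, since more members held mainly heat shock UMIs in LNCaP_FGC. There, 143 members had more heat shock UMIs than FOS and JUN UMIs, 37 had fewer and 5 had equal numbers, whereas in LNCaP_C4-2B these were 80, 88 and 17 members.

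Cells chosen by the heat shock genes and cells chosen by FOS and JUN overlapped in a share near that which each set takes of its library. When an equal number of cells was chosen by the heat shock genes alone, FOS and JUN together were 0.739 of their level in the other cells (0.590 to 0.917) in LNCaP_FGC and 1.15 times it (0.960 to 1.38) in LNCaP_C4-2B. When they were chosen by FOS and JUN alone, the heat shock genes were 0.888 (0.793 to 0.992) and 0.972 (0.820 to 1.15) of it. In LNCaP_FGC 15 and in LNCaP_C4-2B 25 cells were in both sets, which is 8.11% and 13.5% of each set, where each set is 10% of all cells. Within the heat shock genes the agreement between genes was better. The 10% of cells with the most DNAJB1 had 1.56 times (1.37 to 1.78) and 1.59 times (1.24 to 2.02) as much HSPA1B as the others in LNCaP_FGC and LNCaP_C4-2B, and the cells with the most HSPA1B had 1.42 times (1.247 to 1.61) and 1.39 times (1.16 to 1.67) as much DNAJB1. The cells with the most JUN had 5.6 times as much FOS (3.65 to 8.50) in LNCaP_C4-2B, from 38 against 64 UMIs. A single LNCaP_C4-2B cell held 15 FOS and 3 JUN UMIs. In LNCaP_FGC the ratio was 3.03 (0.990 to 7.89), from 6 against 19 UMIs, with an interval that includes 1.

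The promoters of the heat shock genes show the letters that HSF1 is known to bind, and they are printed here because the rule rests on these genes. The windows come from RefSeq (GRCh38.p14) and run from 250 bases before to 50 bases after a gene's start, of which only the part before the start is shown, 5′ to 3′ on the gene's strand. The capitals mark a heat shock element of 2 units (GAANNTTC or TTCNNGAA, searched on both strands and allowed to overlap), which 13.5% of all 35116 windows hold.
HSPA1A (chr6:31815417-31815464, plus strand): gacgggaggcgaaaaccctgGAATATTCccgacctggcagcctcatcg
HSPA1B (chr6:31827613-31827660, plus strand): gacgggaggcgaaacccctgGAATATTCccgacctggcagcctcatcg
DNAJB1 (chr19:14518417-14518494, minus strand): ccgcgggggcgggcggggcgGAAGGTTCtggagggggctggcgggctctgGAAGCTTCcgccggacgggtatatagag
The HSPA1A and HSPA1B windows shared 235 of 249 aligned bases before the start (94.4%), and both carry the same element, although HSPA1A had 0 UMIs in members. DNAJB1 is given at 1 of its 3 listed starts, with 2 matches.

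The longer 3-unit form, in which a further GAA or TTC follows the 2-unit form after any 2 bases in alternate orientation, occurs in 0.490% of the windows, and in 7 of the 21 other heat shock chaperones that have a window. HSPA8, the constitutive HSP70, and HSP90AA1, the inducible HSP90, are shown because their levels are described next, with the 3-unit form in capitals.
HSPA8 (chr11:123062159-123062211, minus strand): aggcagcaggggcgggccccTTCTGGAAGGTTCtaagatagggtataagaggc
HSP90AA1 (chr14:102087100-102087152, minus strand): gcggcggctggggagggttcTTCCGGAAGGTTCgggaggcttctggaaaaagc
JUN held a 2-unit match, and the FOS window held none. No AP-1 site (TGANTCA), cyclic AMP response element (TGACGTCA) or CArG box was found in the windows of the 5 genes. A match describes the letters of the window and not a bound site. The absence of a match covers only these exact letters in this window, and not sites farther away or with other letters.

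Members were of lower depth than the other cells in LNCaP_C4-2B and differed little in mitochondrial RNA in both lines. Median UMIs per cell were 17902 in members and 18330 in the other cells of LNCaP_FGC, and 15444 and 17702 in LNCaP_C4-2B. Mitochondrially encoded genes took 6.08% and 6.29% of UMIs in LNCaP_FGC and 8.17% and 8.37% in LNCaP_C4-2B, and 0 of the 13 such genes reached a log2 ratio of 0.32 in either direction in either library. At 11901 UMIs per cell, the members showed a median of 3986 genes against 3873 in LNCaP_FGC and 3342 against 3334 in LNCaP_C4-2B. Depth thus moved with membership in LNCaP_C4-2B. Members chosen within 3 classes of depth gave 485 higher and 184 lower genes in LNCaP_FGC and 220 and 111 in LNCaP_C4-2B, in place of the counts given next.

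Genes were counted as tested when the library held at least 500 of their UMIs, and as higher or lower when the log2 ratio of members to other cells was at least 0.32 in size. In LNCaP_FGC, 515 of 7597 genes were higher (6.78%) and 182 were lower (2.4%). In LNCaP_C4-2B, 158 of 6473 genes were higher (2.44%) and 174 were lower (2.69%). The counts given below for each gene list are to be read beside these shares. The median gene stood at a log2 ratio of 0.05 in LNCaP_FGC and of 0.00 in LNCaP_C4-2B. Relative to the median gene, the LNCaP_FGC counts became 313 higher and 268 lower. With ribosomal protein and mitochondrial genes left out of the totals they became 363 and 238.

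The other heat shock chaperones, which the rule did not use, differed little. In LNCaP_FGC their summed level was 9116 CPM in members and 8258 CPM in the other cells, a ratio of 1.10 (1.09 to 1.12). Of 17 tested members of the list, 15 were above a ratio of 1 but 1 was counted as higher and none as lower, with a median log2 ratio of 0.09 beside 0.05 over all genes. In LNCaP_C4-2B the list stood at 10259 and 10202 CPM, a ratio of 1.01 (0.994 to 1.02), and of 14 tested genes 0 were higher and 0 lower, with a median of 0.00. The gene that passed was DNAJB4, an HSP40 of low level, at 20.1 and 14.9 CPM in LNCaP_FGC. It was not tested in LNCaP_C4-2B, where it had 17 UMIs in members.

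The abundant chaperones can be read gene by gene. HSP90AA1 was at 1444 CPM in LNCaP_FGC members and 1198 CPM in the other cells, a ratio of 1.21 (1.17 to 1.24), and at 1699 and 1677 CPM in LNCaP_C4-2B, a ratio of 1.01 (0.985 to 1.04). HSPA8 was at 1120 and 1003 CPM in LNCaP_FGC and at 691 and 646 CPM in LNCaP_C4-2B, ratios of 1.12 (1.08 to 1.16) and 1.07 (1.02 to 1.12). DNAJA1, another HSP40, had ratios of 1.22 (1.16 to 1.29) and 0.996 (0.915 to 1.08). None of these 3 genes was counted as higher in either line. HSPH1, an HSP110 that exchanges the nucleotide of HSP70, had ratios of 1.13 (1.03 to 1.23) and 0.974 (0.888 to 1.07). HSPB1, the small heat shock protein HSP27, had ratios of 1.14 (1.09 to 1.20) and 1.11 (1.08 to 1.15), the only 1 of the 5 beside HSPA8 whose interval lay above 1 in both lines. HSPD1 and HSPE1, the mitochondrial chaperonin pair, were at 1.06 and 1.07 in LNCaP_FGC and at 0.942 and 0.944 in LNCaP_C4-2B. The stress-inducible HSPA6 was nearly silent, with 1 UMI in LNCaP_FGC members and 0 in LNCaP_C4-2B members. A count of 0 over the members allows up to 0.884 CPM in LNCaP_FGC and 0.954 CPM in LNCaP_C4-2B.

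The co-chaperones and other HSF1 targets gave the same picture. In LNCaP_FGC 1 of 20 tested genes was higher and 0 were lower (median log2 ratio 0.11), and in LNCaP_C4-2B 0 were higher and 1 was lower (median -0.02). The higher gene was SQSTM1, the autophagy receptor p62, at 324 and 244 CPM in LNCaP_FGC with a ratio of 1.33 (1.245 to 1.41), and at 249 and 216 CPM in LNCaP_C4-2B with a ratio of 1.16 (1.07 to 1.24). In LNCaP_FGC 28 members held 50% of its UMIs. The lower gene was HSPBP1, an HSP70 inhibitor, with 56 UMIs in LNCaP_C4-2B members and a ratio of 0.80 (0.598 to 1.05). BAG3, a co-chaperone that is strongly heat-inducible, was at 49.5 and 45.2 CPM in LNCaP_FGC and at 27.7 in both sets of LNCaP_C4-2B cells. HSF1 itself was at 40.7 and 41.2 CPM in LNCaP_FGC and at 55.0 and 50.7 CPM in LNCaP_C4-2B, with intervals that include a ratio of 1 in both lines. HSF2 did so too, at ratios of 1.09 (0.825 to 1.41) and 0.977 (0.697 to 1.34).

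Among the other tested immediate early genes, ATF3 was counted as higher in both lines. The rest of the genes counted as higher differed by line. However, JUND, counted in LNCaP_C4-2B, and RHOB, counted in LNCaP_FGC, came near the limit in the other line. In LNCaP_FGC 4 of 15 tested genes were higher and 3 were lower, with a median log2 ratio of 0.17. In LNCaP_C4-2B 5 of 12 were higher and 1 was lower, with a median of 0.24. Their summed level was 1127 and 1110 CPM in LNCaP_FGC, a ratio of 1.02 (0.982 to 1.05), and 1333 and 1055 CPM in LNCaP_C4-2B, a ratio of 1.26 (1.22 to 1.31). The sum is weighted by abundant members, and without BTG1, an antiproliferative gene, the LNCaP_FGC ratio was 1.13 (1.09 to 1.17).

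ATF3, a stress-induced partner of JUN in AP-1 complexes, had the highest ratio of the tested genes of the list in both lines. It was at 36.9 CPM in LNCaP_FGC members and 17.9 CPM in the other cells, a ratio of 2.06 (1.68 to 2.51), and at 53.8 and 21.8 CPM in LNCaP_C4-2B, a ratio of 2.46 (2.07 to 2.92). Few cells held much of the ATF3 RNA, among members and among the other cells. A UMI of ATF3 was seen in 30.8% of LNCaP_FGC members against 22.3% of the other cells. In LNCaP_C4-2B these shares were 35.1% and 28.1%. In LNCaP_FGC and LNCaP_C4-2B, 12 and 10 members held 50% of the members' UMIs. Among the other cells, 95 and 132 cells held 50% of theirs. The 2 members above 500 CPM in each line held 20.8% and 24.3% of the members' UMIs, so most lay in other members. Along 10 equal groups of cells in order of score, ATF3 went from 36.9 CPM in the members to 30.3 CPM in the next group and 9.87 CPM in the last in LNCaP_FGC, and from 53.8 to 25.9 and 16.3 CPM in LNCaP_C4-2B.

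JUND, the AP-1 subunit with the highest basal level, was at 430 CPM in LNCaP_C4-2B members and 291 CPM in the other cells, a ratio of 1.48 (1.40 to 1.57), and at 133 and 107 CPM in LNCaP_FGC, a ratio of 1.24 (1.12 to 1.37). JUNB had ratios of 1.74 (1.40 to 2.16) in LNCaP_C4-2B and 1.12 (0.894 to 1.39) in LNCaP_FGC. HES1, a Notch target, had ratios of 1.57 (1.29 to 1.89) and 1.05 (0.963 to 1.15) in the same order. GADD45B, a stress sensor, was the fifth gene counted as higher in LNCaP_C4-2B, at 1.51 (1.17 to 1.93). CCN1, a secreted matrix protein, had 13 UMIs in LNCaP_C4-2B members, too few to be tested, at a ratio of 3.58 (1.74 to 6.88). KLF6, DUSP1 and MAFF were also below the limit for testing, with ratios in LNCaP_C4-2B of 2.23 (1.5 to 3.23), 2.78 (1.83 to 4.11) and 2.78 (1.34 to 5.35) from 35, 33 and 12 UMIs in members. In LNCaP_FGC the higher genes beside ATF3 were ZFP36L1, an RNA-decay factor, at 1.39 (1.21 to 1.59), RHOB, a small GTPase, at 1.38 (1.17 to 1.62) and IER2 at 1.30 (1.10 to 1.51). The lower ones were ID1 and ID3, inhibitors of basic helix-loop-helix factors, at 0.721 (0.603 to 0.856) and 0.792 (0.666 to 0.935), and BTG1 at 0.731 (0.679 to 0.787). ID1 was also the lower gene in LNCaP_C4-2B, at 0.712 (0.506 to 0.978) from 41 UMIs in members. EGR1, an early factor often induced together with FOS, had 2 UMIs in LNCaP_FGC members and 0 in LNCaP_C4-2B members, and FOSB had 4 and 0. SRF, which drives many of these genes through CArG boxes, had ratios of 1.17 (0.966 to 1.40) and 1.19 (0.824 to 1.68).

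A cyclic AMP response element (TGACGTCA, found on either strand in 1.85% of all windows) was present in the windows of 5 of the 31 listed immediate early genes that have one, namely JUND, DUSP1, ZFP36L1, PPP1R15A and MAFF. JUND and DUSP1 are shown for the contrast between an abundant and a rare gene of this group, with the element in capitals.
JUND (chr19:18281795-18281842, minus strand): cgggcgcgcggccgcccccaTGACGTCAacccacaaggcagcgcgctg
DUSP1 (chr5:172771293-172771340, minus strand): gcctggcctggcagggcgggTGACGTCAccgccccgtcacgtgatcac
A CArG box, the binding site of SRF, was found in 3 of the 31, namely EGR1, EGR2 and SRF.

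**Figure D2:**
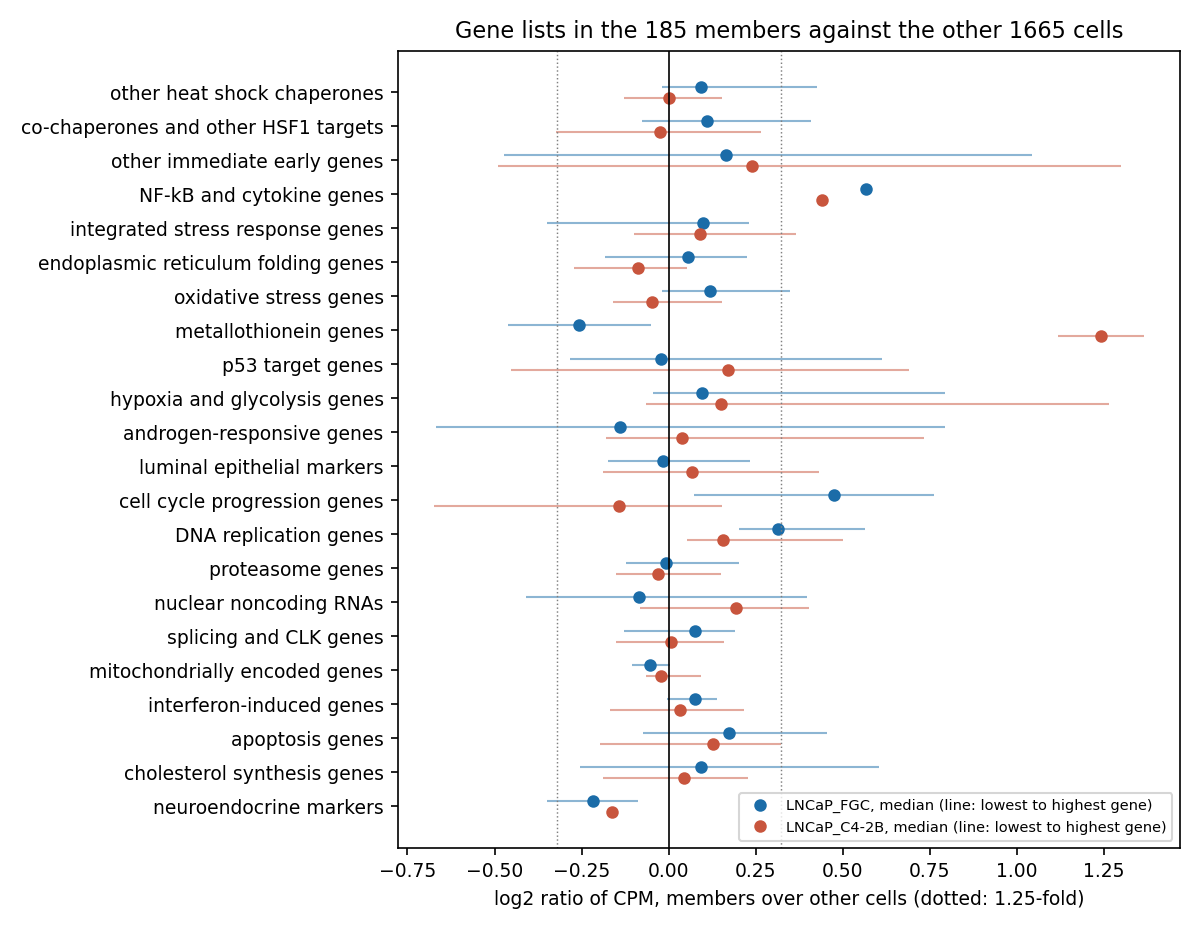
Median log2 ratio of CPM between members and the other cells for each gene list with at least 1 tested gene in both lines (points), with a line from the lowest to the highest gene of the list. Blue is LNCaP_FGC, red is LNCaP_C4-2B and the dotted lines mark a log2 ratio of 0.32 in size. Most medians lie near 0, the cell cycle progression genes stand at 0.47 in LNCaP_FGC and -0.14 in LNCaP_C4-2B, and the metallothionein genes at -0.26 and 1.24.

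Cell cycle genes lay on different sides of the other cells in the lines. In LNCaP_FGC 17 of 20 tested cell cycle progression genes were higher and 0 were lower, with a median log2 ratio of 0.47 and a summed level of 3318 CPM in members against 2417 CPM, a ratio of 1.37 (1.35 to 1.40). In LNCaP_C4-2B 0 of 19 were higher and 2 were lower, with a median of -0.14 and 1825 CPM against 2021 CPM, a ratio of 0.903 (0.879 to 0.928). ASPM, a spindle pole protein, was at 107 and 63.3 CPM in LNCaP_FGC, a ratio of 1.70 (1.51 to 1.90), and at 46.4 and 48.7 CPM in LNCaP_C4-2B, a ratio of 0.953 (0.798 to 1.13). PLK1, the mitotic kinase, was at 66.9 and 42.1 CPM in LNCaP_FGC, a ratio of 1.59 (1.38 to 1.83), and at 47.4 and 63.2 CPM in LNCaP_C4-2B, a ratio of 0.749 (0.630 to 0.885). UBE2C, a ubiquitin-conjugating enzyme of mitosis, had ratios of 1.48 (1.30 to 1.67) and 0.627 (0.515 to 0.755). PLK1 and UBE2C were thus above the other cells in LNCaP_FGC and below them in LNCaP_C4-2B.

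DNA replication genes were above a ratio of 1 in all 16 tested cases in both lines, and 8 were called higher in LNCaP_FGC and 3 in LNCaP_C4-2B, with medians of 0.31 and 0.16. PCNA, the sliding clamp, was at 161 and 109 CPM in LNCaP_FGC, a ratio of 1.48 (1.35 to 1.62), and at 66.8 and 60.5 CPM in LNCaP_C4-2B, a ratio of 1.10 (0.953 to 1.27). RRM2, a subunit of ribonucleotide reductase that was in the cell cycle progression list, had ratios of 1.51 (1.35 to 1.70) and 1.11 (0.956 to 1.29). In LNCaP_C4-2B it was the only 1 of the 19 tested genes of that list above a ratio of 1. CCNE2, the cyclin of entry into S phase, had 1.22 (1.08 to 1.38) and 1.41 (1.06 to 1.85).

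Phase calls from expression moved with the cell cycle genes, some of which they use. In LNCaP_FGC 30.8% of members were called G1, 27.6% S and 41.6% G2/M, against 44.9%, 24.7% and 30.4% of the other cells. In LNCaP_C4-2B these were 51.4%, 22.7% and 26.0% of members against 48.6%, 20.9% and 30.5%. The G1 share of LNCaP_FGC members, with an interval of 24.2% to 38.0%, lay below that of the other cells, and the LNCaP_C4-2B shares overlapped. In cells thinned to an equal number of UMIs, G2/M made up 41.0% and 29.0% in LNCaP_FGC and 30.1% and 31.4% in LNCaP_C4-2B, with 156 members left in each line. When members were chosen within each phase, the median log2 ratio of the cell cycle progression genes was 0.13 in LNCaP_FGC, in place of 0.47, and 0.03 in LNCaP_C4-2B. The negative median in LNCaP_C4-2B also turned positive, to 0.14, for members chosen within 3 classes of depth.

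**Figure D3:**
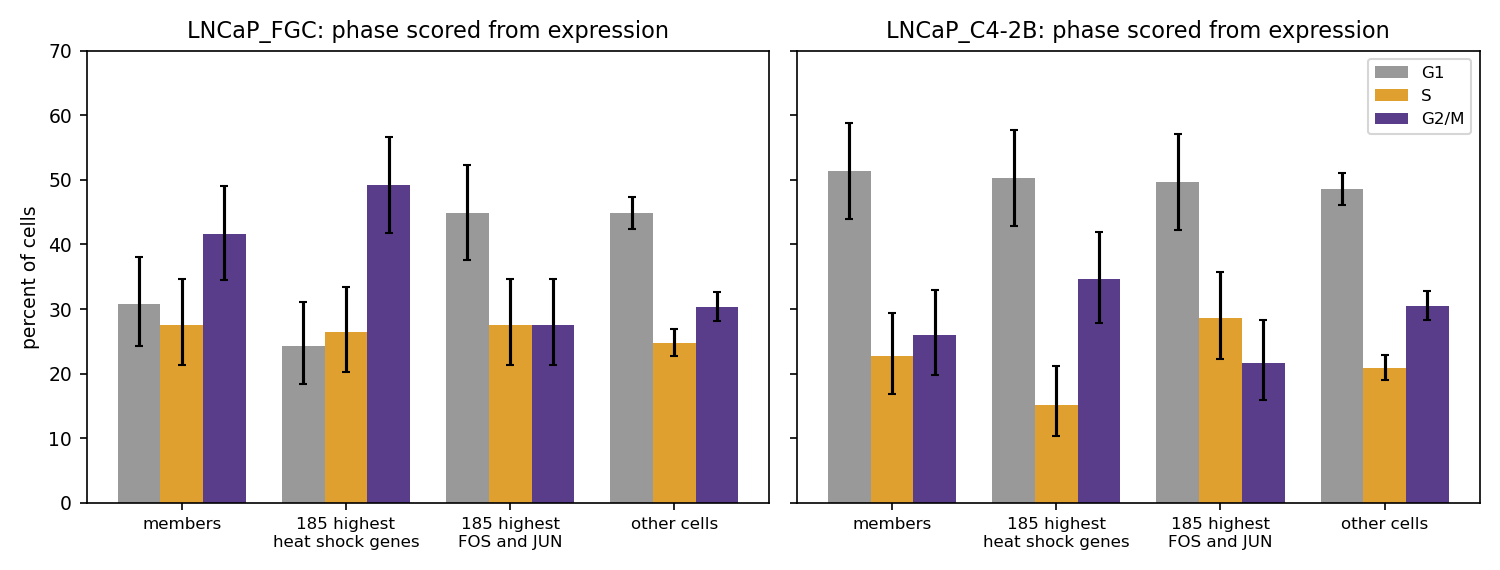
Share of cells called G1, S and G2/M from expression (vertical axis, percent of cells) in members, in equal numbers of cells highest for HSPA1A, HSPA1B and DNAJB1 and highest for FOS and JUN, and in the cells that are not members. Bars show the share and error bars its exact binomial 95% interval. G2/M is 49.2% among the LNCaP_FGC cells chosen by heat shock genes and 27.6% among those chosen by FOS and JUN, and 34.6% and 21.6% in LNCaP_C4-2B.

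The parts of the score differed in PLK1 and CDC20 in the same direction in both lines. For cells chosen by the heat shock genes alone, PLK1 was 1.86 times (1.62 to 2.12) its level in the other cells of LNCaP_FGC and 1.31 times (1.15 to 1.49) that of LNCaP_C4-2B. For cells chosen by FOS and JUN alone it was 0.772 (0.634 to 0.933) and 0.543 (0.447 to 0.653) of it. CDC20, the activator of the anaphase-promoting complex, followed with 1.95 (1.74 to 2.19) and 1.34 (1.19 to 1.5) for the heat shock genes and 0.847 (0.720 to 0.991) and 0.681 (0.583 to 0.790) for FOS and JUN. Both genes were therefore higher in cells rich in heat shock RNA and lower in cells rich in FOS and JUN. The share of G2/M cells was 49.2% for heat shock and 27.6% for FOS and JUN in LNCaP_FGC, and 34.6% and 21.6% in LNCaP_C4-2B. In the cells outside each set it was 29.55% and 31.95% in LNCaP_FGC, and 29.55% and 30.99% in LNCaP_C4-2B. The share outside the set lay within the interval for FOS and JUN in LNCaP_FGC (21.3% to 34.6%). It also did so for heat shock in LNCaP_C4-2B (27.8% to 41.9%).

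The chaperones HSPH1, HSPA8 and HSP90AA1 had higher ratios in cells chosen by heat shock genes than in cells chosen by FOS and JUN. HSPH1 had ratios of 1.15 (1.05 to 1.26) and 1.21 (1.11 to 1.31) in LNCaP_FGC and LNCaP_C4-2B cells chosen by heat shock genes, and of 1.08 (0.989 to 1.19) and 0.775 (0.701 to 0.854) in cells chosen by FOS and JUN. HSPA8 had 1.13 (1.09 to 1.17) and 1.16 (1.11 to 1.21) in the former and 1.01 (0.979 to 1.05) and 0.940 (0.898 to 0.984) in the latter. HSP90AA1 had 1.27 (1.24 to 1.31) and 1.09 (1.06 to 1.12), then 1.07 (1.03 to 1.10) and 0.997 (0.970 to 1.02). Even for cells chosen by heat shock RNA alone, these chaperones were higher by less than 1.3-fold.

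ATF3 was higher in cells chosen by FOS and JUN. Its ratio was 3.35 (2.81 to 3.98) in LNCaP_FGC and 2.28 (1.92 to 2.71) in LNCaP_C4-2B for cells chosen by FOS and JUN, and 1.08 (0.834 to 1.39) and 1.15 (0.925 to 1.43) for cells chosen by heat shock genes. NFKBIA, which encodes the NF-kB inhibitor and is itself an NF-kB target, had 2.05 (1.81 to 2.31) and 1.15 (0.972 to 1.36), then 1.07 (0.912 to 1.24) and 1.13 (0.951 to 1.33). KLF6 had 1.86 (1.33 to 2.56) and 2.21 (1.5 to 3.18) for FOS and JUN, and 1.61 (1.13 to 2.25) and 1.54 (0.992 to 2.30) for heat shock genes. The contrast between the parts of the score was thus clear for ATF3 in both lines, for NFKBIA in LNCaP_FGC, and not for KLF6.

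**Figure D4:**
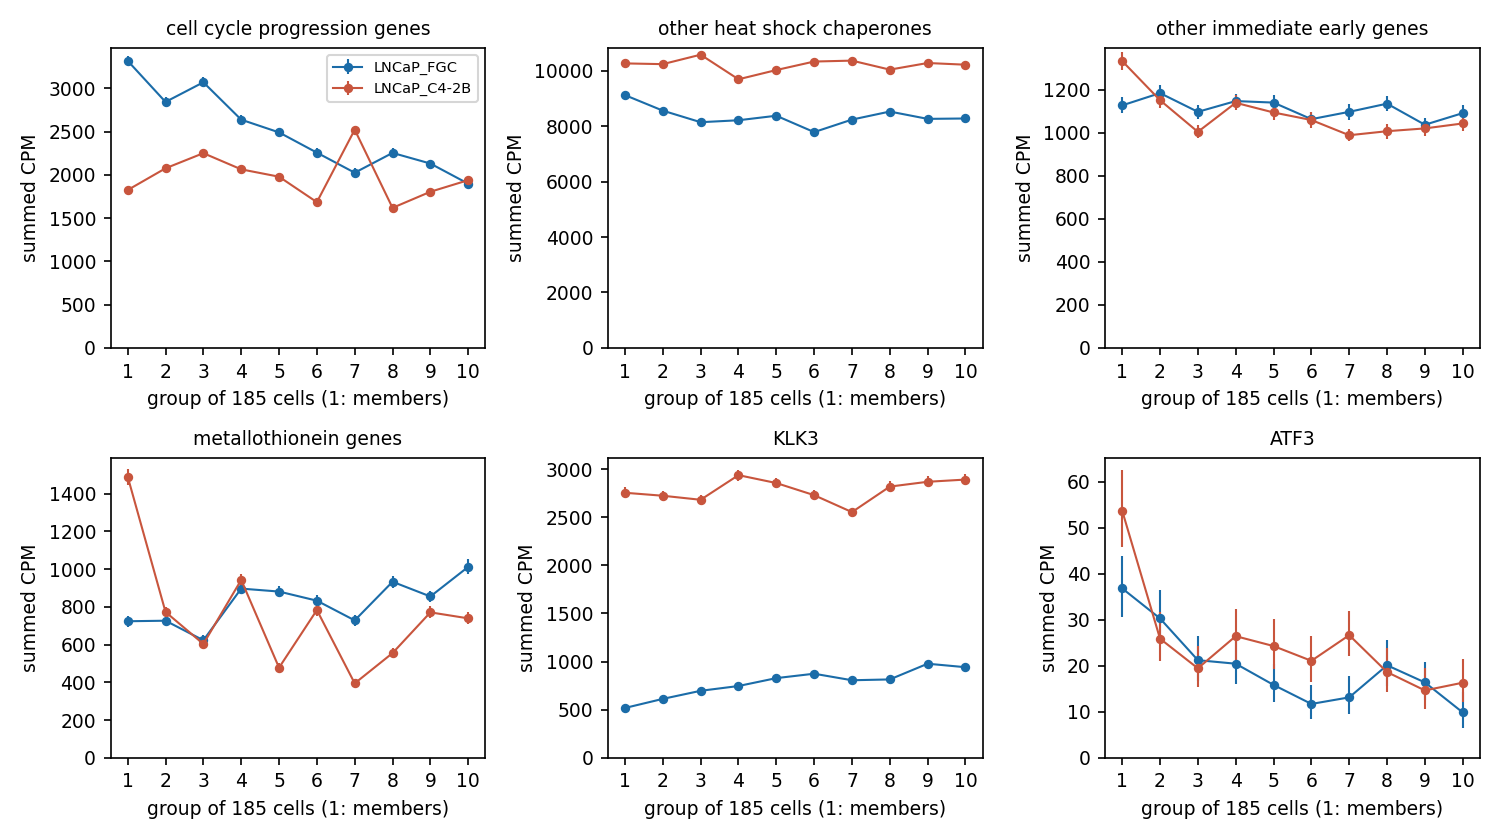
Summed level in CPM (vertical axes, from 0) of 4 gene lists and of KLK3 and ATF3 in 10 consecutive equal groups of cells ordered by score (horizontal axes, group 1 being the members) in LNCaP_FGC (blue) and LNCaP_C4-2B (red), with exact Poisson 95% intervals. Cell cycle progression genes go from 3318 CPM in the members to 1898 CPM in the last LNCaP_FGC group, KLK3 goes from 518 to 942 CPM, and metallothionein genes stand at 1490 CPM in the LNCaP_C4-2B members.

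Few genes were counted in both lines, some on the same side and some on opposite sides. Among 6163 genes tested in both, the log2 ratios had a Pearson r of 0.02, a description across genes that are not independent replicates. Of them 15 were higher in both, which is 4.12% of the 364 higher in LNCaP_FGC and 10.9% of the 138 higher in LNCaP_C4-2B, while 2.24% and 5.91% of all 6163 genes were higher in the other line. In the same way 5 were lower in both, 5.62% and 3.23% of each list, beside 2.52% and 1.44% of all genes. Another 19 of the 364 higher in LNCaP_FGC were lower in LNCaP_C4-2B, where 2.52% of all genes were lower. The reverse held for 9 of the 89 lower in LNCaP_FGC, beside 2.24% of all genes higher in LNCaP_C4-2B.

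Beside ATF3, the shared higher genes with the largest ratios were NDRG1, GDF15 and NFKBIA. NDRG1, a gene induced by hypoxia and by androgen, was at 90.5 and 52.3 CPM in LNCaP_FGC, a ratio of 1.73 (1.53 to 1.96), and at 107 and 64.5 CPM in LNCaP_C4-2B, a ratio of 1.66 (1.48 to 1.87). GDF15, a secreted stress cytokine, was at 155 and 101 CPM in LNCaP_FGC, a ratio of 1.53 (1.39 to 1.68), and at 1087 and 696 CPM in LNCaP_C4-2B, a ratio of 1.56 (1.51 to 1.62). NFKBIA was at 74 and 50 CPM and at 55.0 and 40.6 CPM, ratios of 1.48 (1.29 to 1.69) and 1.36 (1.15 to 1.59). In LNCaP_FGC, NDRG1 and GDF15 rested on few cells, with 7 and 6 members holding 50% of the UMIs, and the median member had 0 CPM of both. In LNCaP_C4-2B 17 and 22 members held 50%, and the median cell had 52.4 CPM of NDRG1 in members against 39.0 CPM and 495 CPM of GDF15 against 339 CPM. For cells chosen by heat shock genes alone, NDRG1, GDF15 and NFKBIA had ratios of 1.04, 1.35 and 1.07 in LNCaP_FGC and of 0.976, 0.965 and 1.13 in LNCaP_C4-2B. For cells chosen by FOS and JUN alone they had 1.83, 1.497 and 2.05, and 1.64, 1.505 and 1.15. The other shared genes are outside the rule for named genes, save CXADR, ID1 and SYVN1, and are listed because they were counted in both lines. The higher ones were CXADR, ATP8B1, CAMK2G, CCDC127, ERCC6L, LRRCC1, POLQ, POLR3G, PPP1R15B, TOP1MT and XRCC2, and the lower ones were ID1, SYVN1, EEFSEC, RAB3A and UTP4. The intervals of ERCC6L and RAB3A include a ratio of 1 in both lines. Those of LRRCC1, POLQ, POLR3G, XRCC2 and UTP4 include it in LNCaP_C4-2B, and that of EEFSEC in LNCaP_FGC.

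**Figure D5:**
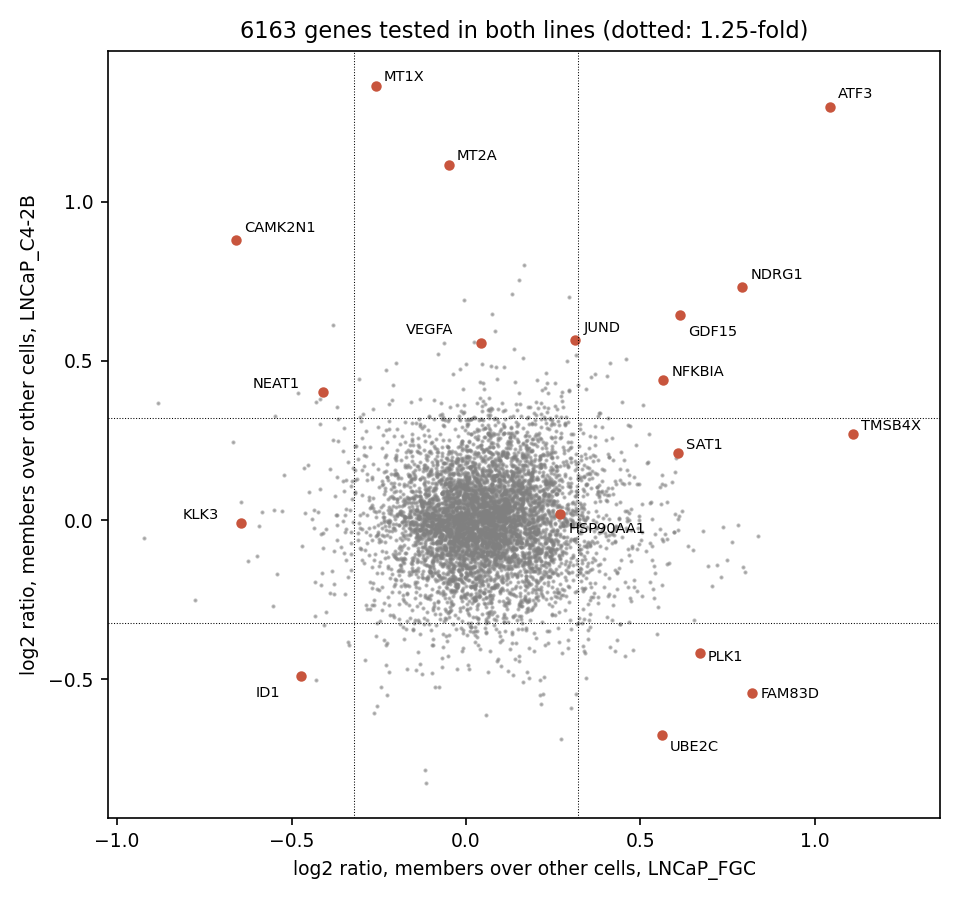
Log2 ratio of CPM between members and the other cells in LNCaP_FGC (horizontal axis) and LNCaP_C4-2B (vertical axis) for the 6163 genes tested in both lines (grey points), with 18 genes named in red and dotted lines at a log2 ratio of 0.32 in size. ATF3, NDRG1, GDF15 and NFKBIA lie in the upper right, PLK1, UBE2C and FAM83D in the lower right and CAMK2N1 and NEAT1 in the upper left. FAM83D and CAMK2N1 were picked for the plot after their values were seen.

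Outside the lists, the highest named gene in LNCaP_FGC was TMSB4X, an actin-binding peptide, at 98.8 and 45.8 CPM, a ratio of 2.16 (1.91 to 2.43). In that library 1 member held 39.4% of its UMIs, 4 members held 50%, and the share of cells with a UMI was 43.8% against 42.5%. SAT1, the enzyme that acetylates spermidine, was at 677 and 444 CPM, a ratio of 1.52 (1.46 to 1.59), with 10 members holding 50% and a median cell of 279.8 CPM against 302 CPM. Both ratios therefore came from few cells. For INSIG1, a brake on cholesterol synthesis, at 1.52 (1.34 to 1.72), CENPU, a centromere protein, at 1.48 (1.35 to 1.61) and MDC1, a DNA damage mediator, at 1.45 (1.26 to 1.65), 33, 34 and 28 members held 50% of the UMIs. ARHGAP19, EXPH5, CXADR and RFC2 had ratios of 1.38 to 1.49.

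In LNCaP_FGC the lower genes included KLK3, the androgen-regulated gene of prostate-specific antigen. It was at 518 CPM in members and 809.6 CPM in the other cells, a ratio of 0.640 (0.609 to 0.672), and the median cell had 114 against 488 CPM. In LNCaP_C4-2B it was at 2754 and 2772 CPM, a ratio of 0.994 (0.972 to 1.02). The ratio was 0.564 (0.536 to 0.594) for LNCaP_FGC cells chosen by heat shock genes and 0.862 (0.825 to 0.900) for those chosen by FOS and JUN. ETV1, an ETS transcription factor gene, moved with KLK3 there, at 117 and 158 CPM, and 45.4% of members had 0 ETV1 UMIs against 31.6% of the other cells (49.4% and 37.5% at equal depth). Chosen within cells with and without ETV1 UMIs, the members had a KLK3 log2 ratio of -0.35 in place of -0.64. JAG1, a Notch ligand, at 0.581 (0.472 to 0.708), NUP93, a nucleoporin, at 0.682 (0.617 to 0.751), SLC4A4, a bicarbonate transporter, at 0.711 (0.604 to 0.833) and AMACR, a racemase of prostate cancer, at 0.781 (0.678 to 0.895) were also lower. DGKH, TMEM126A and the noncoding RNAs LINC00662 and SCHLAP1 stood at 0.757, 0.757, 0.766 and 0.786.

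Androgen-responsive genes as a list were 1 higher and 2 lower of 17 in LNCaP_FGC (median log2 ratio -0.14) and 1 higher and 0 lower of 17 in LNCaP_C4-2B (median 0.04), the higher gene being NDRG1 in both, which is also in the hypoxia list. Beside these counts, 6.78% of all tested genes were higher and 2.4% lower in LNCaP_FGC, and 2.44% and 2.69% in LNCaP_C4-2B. The summed ratio of 0.875 (0.858 to 0.892) in LNCaP_FGC was 0.942 (0.922 to 0.963) without KLK3.

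In LNCaP_C4-2B the members were higher in hypoxia and metallothionein genes. Of the hypoxia and glycolysis genes 5 of 15 were higher and 0 lower, with a median log2 ratio of 0.15, against 2 and 0 of 15 and a median of 0.10 in LNCaP_FGC. ANKRD37, a target of hypoxia-inducible factor, was at 68.7 and 28.6 CPM, a ratio of 2.40 (2.06 to 2.79). VEGFA, the angiogenic growth factor, was at 133 and 90.1 CPM, a ratio of 1.47 (1.33 to 1.63). P4HA1, a collagen prolyl hydroxylase, had 1.39 (1.27 to 1.52) and ALDOA, an aldolase, 1.38 (1.18 to 1.60). In LNCaP_FGC the ratios of ANKRD37, VEGFA and P4HA1 were 1.01, 1.03 and 0.988, with intervals that include 1. ANKRD37 was below the limit for testing in LNCaP_FGC, with 29 UMIs in members. ERO1A and HILPDA, a disulfide oxidase and a lipid droplet protein that also respond to hypoxia, were named by size alone, at 1.64 (1.44 to 1.86) and 1.51 (1.34 to 1.69) in LNCaP_C4-2B. ANKRD37 was carried by few cells, since 7 members held 50% of its UMIs, while 26 held 50% of those of VEGFA.

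The metallothioneins, which bind zinc and copper, were 2 higher and 0 lower of 2 tested genes in LNCaP_C4-2B and 0 higher and 1 lower of 3 in LNCaP_FGC. MT1X was at 425 and 165 CPM in LNCaP_C4-2B, a ratio of 2.58 (2.42 to 2.74), and MT2A at 1055 and 486 CPM, a ratio of 2.17 (2.09 to 2.25). The median cell had 55.3 CPM of MT1X in members against 53.6 CPM and 183 CPM of MT2A against 169.7 CPM, and 5 members held 50% of the UMIs of each gene. Cells with over 5000 CPM of both genes together were 13 of the members (7.03%, 3.79% to 11.7%) and 43 of the others (2.58%, 1.88% to 3.46%), and these 13 members held 77.9% of the members' UMIs. The difference thus lay in a few very rich cells and not in the typical member. In LNCaP_FGC, MT1G was at 118 and 162 CPM and MT1X at 223 and 266 CPM, ratios of 0.726 (0.654 to 0.804) and 0.836 (0.775 to 0.901), and 0 members against 22 other cells passed 5000 CPM.

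CLDN4, a tight junction gene, PHLDA2, an imprinted growth regulator, XAB2, a splicing and repair factor, KLF3 and ALDOC completed the higher genes named in LNCaP_C4-2B, with ratios of 1.27 to 1.35. The lower genes named there were PCAT1, a prostate cancer noncoding RNA, at 0.683 (0.563 to 0.821), MYCBP2, a ubiquitin ligase, at 0.782 (0.689 to 0.883), ISCA1, an iron-sulfur assembly factor, at 0.787 (0.665 to 0.927) and SYVN1, a ubiquitin ligase of the endoplasmic reticulum, at 0.796 (0.672 to 0.937).

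The nuclear noncoding RNAs NEAT1 and MALAT1 lay on opposite sides of the other cells in the lines, and NEAT1 alone of them was counted as lower or higher. NEAT1, the scaffold of paraspeckles, was at 1620 and 2152 CPM in LNCaP_FGC, a ratio of 0.753 (0.732 to 0.774), and at 2230 and 1687 CPM in LNCaP_C4-2B, a ratio of 1.32 (1.29 to 1.36). MALAT1, a nuclear speckle RNA, was at 17461 and 21127 CPM and at 16543 and 14121 CPM, ratios of 0.827 (0.820 to 0.834) and 1.17 (1.16 to 1.18). Among 8 and 7 tested genes of the list, 1 was higher and 1 lower in LNCaP_FGC and 1 was higher and 0 lower in LNCaP_C4-2B. The higher gene in LNCaP_FGC was SNHG12, a small nucleolar RNA host gene, at 1.32 (1.06 to 1.62).

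In most of the remaining stress lists few genes were counted as higher or lower. Over all tested genes 6.78% were higher and 2.4% lower in LNCaP_FGC, and 2.44% and 2.69% in LNCaP_C4-2B. Of the integrated stress response genes 0 were higher and 1 lower of 14 in LNCaP_FGC, where DDIT4 had 0.786 (0.665 to 0.923), and 2 were higher and 0 lower of 14 in LNCaP_C4-2B, among them DDIT3 at 1.27 (1.11 to 1.45). Of the oxidative stress genes 1 was higher of 10 in LNCaP_FGC, the ferritin heavy chain FTH1 at 2554 and 2006 CPM with a ratio of 1.27 (1.245 to 1.30), of which 1 member held 8.62% of the UMIs and the median cell had 1824 against 1820 CPM, and 0 of 10 in LNCaP_C4-2B. Of the p53 target genes 1 of 10 was higher in LNCaP_FGC, GDF15, and 2 of 7 were higher and 1 lower in LNCaP_C4-2B. Their summed level had a ratio of 1.07 (1.025 to 1.12) in LNCaP_FGC and of 1.44 (1.39 to 1.48) in LNCaP_C4-2B. Without GDF15 these ratios were 0.983 (0.935 to 1.03) and 1.13 (1.05 to 1.20). CDKN1A, the cell cycle inhibitor p21, was at 28.9 and 17.9 CPM in LNCaP_C4-2B, a ratio of 1.61 (1.28 to 2.02), with 7 members holding 50%, and at 94.1 and 94.4 CPM in LNCaP_FGC. Endoplasmic reticulum folding genes had 0 higher and 0 lower of 17 and of 16, with summed ratios of 1.03 (1.01 to 1.05) and 0.963 (0.945 to 0.982). Proteasome genes had 0 higher and 0 lower of 31 in both lines, and splicing and CLK genes 0 and 0 of 16 and of 15. Apoptosis genes had 1 higher of 8 and 1 of 6, cholesterol synthesis genes 1 of 14 and 0 of 13, interferon-induced genes 0 of 4 and 0 of 5, and none of these was lower. The list of NF-kB and cytokine genes had 1 tested gene in each line, NFKBIA.

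Luminal markers were at like levels in members and in the other cells, and most markers of other cell types were near 0. Luminal epithelial markers had 0 higher and 0 lower of 12 in LNCaP_FGC and 1 higher and 0 lower of 13 in LNCaP_C4-2B, with summed levels of 2148 against 2172 CPM and 2653 against 2521 CPM. Immune cell, endothelial and erythroid, and basal epithelial markers summed to between 0.594 and 3.75 CPM in every set of cells, and PTPRC, CD3E, CDH5, KRT5 and TP63 had 0 UMIs in members. Fibroblast markers were at 24.2 and 22.6 CPM in LNCaP_FGC and at 0.318 and 1.88 CPM in LNCaP_C4-2B, with COL1A2 and DCN at 0 UMIs in all cells and ACTA2 giving 62 of the members' UMIs in LNCaP_FGC. Neuroendocrine markers were at 108 and 128 CPM in LNCaP_FGC and at 91.6 and 78.8 CPM in LNCaP_C4-2B, with INSM1 at 0 UMIs in both lines. SYT4, a synaptotagmin, was at 72.8 and 92.7 CPM in LNCaP_FGC and at 20.4 and 9.75 CPM in LNCaP_C4-2B, where 1 member held 45.3% of the members' UMIs, and ENO2, an enolase, at 13.7 and 6.12 CPM in LNCaP_C4-2B.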

How the data were processed

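The submitters' processing notes name GRCh38, Cell Ranger 6.0 and Seurat. The deposited values are counts of UMIs per gene and cell, which the authors made after removing cells on quality measures and doublet score, drawing equal numbers of cells from each line and thinning the counts to a shared average. The sources used here do not give the original depth. Totals were 35150013 UMIs in LNCaP_FGC and 35149989 in LNCaP_C4-2B, over 36601 genes, and no barcode was shared (0).

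UMIs were summed over members and over other cells, scaled to CPM and compared as ratios with exact conditional 95% intervals (Python 3.11.15, numpy 2.4.6, scipy 1.17.1, pandas 2.3.3). Shares have exact Clopper-Pearson and levels exact Poisson intervals. Phases were called with Seurat 5.3.0 in R 4.3.3 from 43 S and 54 G2M genes. For equal depth, cells were thinned to 11901 UMIs, which kept 1623 and 1665 cells. Members and the 26 lists were chosen with earlier results of these data known. Genes that could be named were the 15 highest and 10 lowest called ratios per library that reached 50 CPM in the higher set and lay on the same side of 1 in the other library (ribosomal protein, mitochondrial and histone genes left out), up to 4 high and 2 low genes per list, all members of the chaperone, co-chaperone and immediate early lists, and HSF1, HSF2, SRF, ETV1, MALAT1, NEAT1 and KLK3. Of the genes always named, 1 is not reported here, and the members of the 3 lists are named in part. Scripts were tested on simulated data.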

Additional observations from a re-analysis of the deposited data

Results flagged for a closer look

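Several results had counting intervals on opposite sides of 1 in the lines. The difference between the lines was not tested, since each line is 1 library, and the line and the batch cannot be told apart. Differences are log2 ratios in LNCaP_FGC minus those in LNCaP_C4-2B. The summed cell cycle progression genes differed by 0.60, and among single genes PLK1 differed by 1.09, UBE2C by 1.24 and CENPE, a mitotic motor protein, by 0.77. CENPE had ratios of 1.36 (1.23 to 1.5) and 0.797 (0.687 to 0.921) and was named after its values were seen. In LNCaP_C4-2B the side depended on how members were chosen. PLK1 there had a ratio of 0.951 (0.8145 to 1.105) within phases and of 1.31 (1.15 to 1.49) with the heat shock genes only. UBE2C there had 0.7485 (0.626 to 0.889) and 1.06 (0.914 to 1.22). The median of the list also changed side there, as given below.

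The summed metallothionein genes differed by -1.37, where 5 LNCaP_C4-2B members held 50% of the UMIs of MT1X and of MT2A. The nuclear noncoding RNAs differed by -0.52 and NEAT1 by -0.81. The androgen-responsive genes differed by -0.23, the neuroendocrine markers by -0.45 and the endoplasmic reticulum folding genes by 0.09. The neuroendocrine sum in LNCaP_C4-2B had a ratio of 1.16 (1.025 to 1.31) from 288 UMIs in members. Of these, 29 were SYT4 UMIs of 1 cell. DLL3, the only tested gene of that list there, had a log2 ratio of -0.16.

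CAMK2N1, which encodes an inhibitor of the kinase CaMKII and was named after its values were seen, differed by -1.54. It was at 181 and 286 CPM in LNCaP_FGC, a ratio of 0.633 (0.582 to 0.687), and at 50.3 and 27.3 CPM in LNCaP_C4-2B, a ratio of 1.84 (1.54 to 2.18), where 3 members held 50% of its UMIs.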

How the results depend on the processing

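No paired analysis was possible because each line is 1 library, and no result comes from a test. The counts of genes with a log2 ratio of at least 0.32 in size were 515 higher and 182 lower in LNCaP_FGC and 158 and 174 in LNCaP_C4-2B, and in the following they are given in that order. They were 46, 24, 20 and 10 at 1.5-fold. With at least 10 UMIs they were 3019, 2688, 2260 and 2765, with at least 100 UMIs 1386, 821, 843 and 1023, and with at least 2000 UMIs 78, 22, 18 and 8. In cells thinned to equal depth they were 789, 346, 323 and 365, and with members chosen again on thinned counts 657, 347, 291 and 326. With the 93 highest cells they were 878, 399, 407 and 547, and with the 370 highest 257, 82, 73 and 41. Relative to the median gene, 313 were higher in LNCaP_FGC, within each phase 330, with FOS and JUN only 197 and without HSPA1A and HSPA1B 286. In LNCaP_C4-2B 269 were lower with FOS and JUN only, 110 with the heat shock genes only and 111 within 3 classes of depth. The cause was not tested.

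Among the genes named by their ratios and the list medians of at least 0.32 in size, the following 12 values changed their side of 1. With FOS and JUN only, in LNCaP_FGC, the log2 ratio was -0.16 for the median of the cell cycle progression genes, 0.10 for AMACR, -0.0715 for CENPU, 0.0006 for JAG1, -0.10 for MDC1 and -0.0268 for PCNA. With the heat shock genes only, in LNCaP_C4-2B, it was -0.0358 for ALDOA, -0.0511 for GDF15 and -0.0351 for NDRG1. On thinned counts it was -0.11 for CXADR in LNCaP_FGC and -0.0497 for ALDOC and 0.0035 for SYVN1 in LNCaP_C4-2B. Other named genes changed side too. With FOS and JUN only, in LNCaP_FGC, PLK1 had a ratio of 0.772, ASPM of 0.859, CDC20 of 0.847, UBE2C of 0.823 and CAMK2N1 of 1.05, and with the heat shock genes only, in LNCaP_C4-2B, PLK1 had 1.31, ASPM 1.26, CDC20 1.34 and UBE2C 1.06. The cell cycle median of -0.14 in LNCaP_C4-2B became 0.14 within 3 classes of depth, 0.03 within phases and 0.08 with the heat shock genes only. Of 729 values of genes named by their ratios, 565 stayed within their counting error and 153 moved beyond it on the same side. Of 330 list medians, 158 stayed within a margin taken from the counting interval of the summed list, and 171 moved beyond it. Those 171 include medians under 0.32 in size that changed side. Leaving out the 10 highest cells and choosing members within ETV1 classes were chosen after seeing the data, and gave 510, 192, 176 and 175 genes and, in LNCaP_FGC, 420 and 195.

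Most members hold under 10 UMIs of the rule genes, so which cells are members depends on counting error, and single cells carry several of the highest ratios.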
